A study of Homo sapiens with 6 samples.

Results

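The very wide open regions of wild-type hTERT-RPE1 chromatin are described here, 524 stretches of the autosomes that were called as 1 peak of at least 2500 bp in each of 2 peak lists. They were chosen by width alone, as R1 peaks of at least 2500 bp that overlap an R2 peak of at least 2500 bp. The R1 list held 143492 peaks, 139657 of them on autosomes, so the wide regions were 0.375% of the autosomal peaks and 1.40% of their total length. The R2 list held 134940 peaks, 131287 on autosomes. hTERT-RPE1 is a human retinal pigment epithelial line immortalised with telomerase. All 6 libraries carry the same wild-type label, and their titles place 3 in the set R1 and 3 in the set R2, with no label saying what separates the sets. The assay was ATAC-seq. In it, nuclei are isolated and the transposase Tn5 cuts DNA where chromatin is open, joining adapters for sequencing to the ends. The data are 1 pooled peak list per set, so no spread between libraries can be given, no test across samples was possible, and every statement below is a description of 2 pooled lists. Whether reads of a single library make a region wide cannot be told apart from these lists.

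Accessible stretches of chromatin are mostly short, because an enhancer or promoter usually displaces a few nucleosomes around its bound factors. Broad accessible stretches are known at promoters rich in CpG dinucleotides, at pairs of genes read in opposite directions, and at clusters of short, heavily transcribed genes such as those for histones and transfer RNAs. Promoters of genes that specify or sustain a cell type are also known to carry broad domains of active histone marks.

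The promoters printed here belong to wide regions at genes of 5 different roles. Each is the 150 bases before a start listed by RefSeq on GRCh38.p14, 5′ to 3′ on the strand of the gene, with capitals for matches to GGGCGG, the motif bound by SP factors, and to CCAAT, on either strand. VIM encodes the intermediate filament protein vimentin, JUN an AP-1 subunit, TGFB1 the ligand TGF-beta 1 and BRD2 a reader of acetylated histones. H2AC15 and H2BC15 are a histone H2A and a histone H2B gene read away from each other, so their sequences overlap on opposite strands.
VIM, chr10:17228091-17228240, plus strand: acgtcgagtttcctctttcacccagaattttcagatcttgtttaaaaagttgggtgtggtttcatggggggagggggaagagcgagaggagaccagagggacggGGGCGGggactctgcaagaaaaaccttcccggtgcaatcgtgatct
JUN, chr1:58784048-58784197, minus strand: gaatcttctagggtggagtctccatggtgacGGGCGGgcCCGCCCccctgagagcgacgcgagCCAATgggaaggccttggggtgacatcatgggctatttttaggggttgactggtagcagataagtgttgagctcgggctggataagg
TGFB1, chr19:41353923-41354072, minus strand: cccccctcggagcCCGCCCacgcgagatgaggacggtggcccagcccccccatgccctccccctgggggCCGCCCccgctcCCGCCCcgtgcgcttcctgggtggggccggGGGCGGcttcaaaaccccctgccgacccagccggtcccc
BRD2, chr6:32968444-32968593, plus strand: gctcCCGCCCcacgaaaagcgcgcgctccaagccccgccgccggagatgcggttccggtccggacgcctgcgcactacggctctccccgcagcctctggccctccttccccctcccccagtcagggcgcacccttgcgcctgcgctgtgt
H2AC15, chr6:27838376-27838525, minus strand: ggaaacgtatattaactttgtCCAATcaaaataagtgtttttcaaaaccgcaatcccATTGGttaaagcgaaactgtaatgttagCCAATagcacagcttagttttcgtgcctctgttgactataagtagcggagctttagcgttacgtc
H2BC15, chr6:27838419-27838568, plus strand: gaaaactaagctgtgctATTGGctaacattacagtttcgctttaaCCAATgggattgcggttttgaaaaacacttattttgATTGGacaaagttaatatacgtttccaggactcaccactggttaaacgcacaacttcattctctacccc
In 150 bases the BRD2 stretch holds 18 CpG, the TGFB1 stretch 14, those of VIM, JUN and H2AC15 7 each and that of H2BC15 4. The H2AC15 and H2BC15 stretches are both 38.7% G and C, against 52.7% at VIM and 58.7% at JUN.

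Width chose the members, so widths are given as a description. They ran from 2501 to 5432 bp in R1, with a median of 2778.5 bp, and from 2500 to 5319 bp in R2, with a median of 2779.5 bp. Most lay close to the minimum: 398 (76.0%) were under 3000 bp in R1, 107 reached 3000 bp in both lists, 25 reached 3500 bp and 4 reached 4000 bp. Together they covered 1.51 Mb in R1. The members just inside the minimum lay at DNAAF9 (2563 bp in R1 and 2500 bp in R2) and between genes with ARRDC3 as the nearest coding gene (2587 and 2500 bp). Just outside were the peaks at FAM72C (2498 and 3372 bp) and KLC2 (2528 and 2498 bp). R1 held 667 autosomal peaks of at least 2500 bp and R2 held 897. The 143 in R1 that were not members all overlapped a narrower R2 peak, of 2000 to under 2500 bp in 98 cases, so most missed the minimum by no more than 500 bp. Of the 373 in R2 that were not members, 304 lay over more than 1 R1 peak.

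The edges of the wide regions lay close together in both lists. The median shift was 30 bp at the left edge and 29.5 bp at the right edge, and both edges lay within 50 bp in 232 regions (44.3%). In 30 regions (5.73%) an edge moved by 500 bp or more. A region was wider in R1 in 282 cases, wider in R2 in 233 and equal in 9. The region at PFN1, the gene of the actin-binding protein profilin, shows the common case, with 3051 bp in R1 and 3066 bp in R2. The region in the body of DLC1 shows the rare one, with 2580 bp in R1 and 4184 bp in R2.

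**Figure D1:**
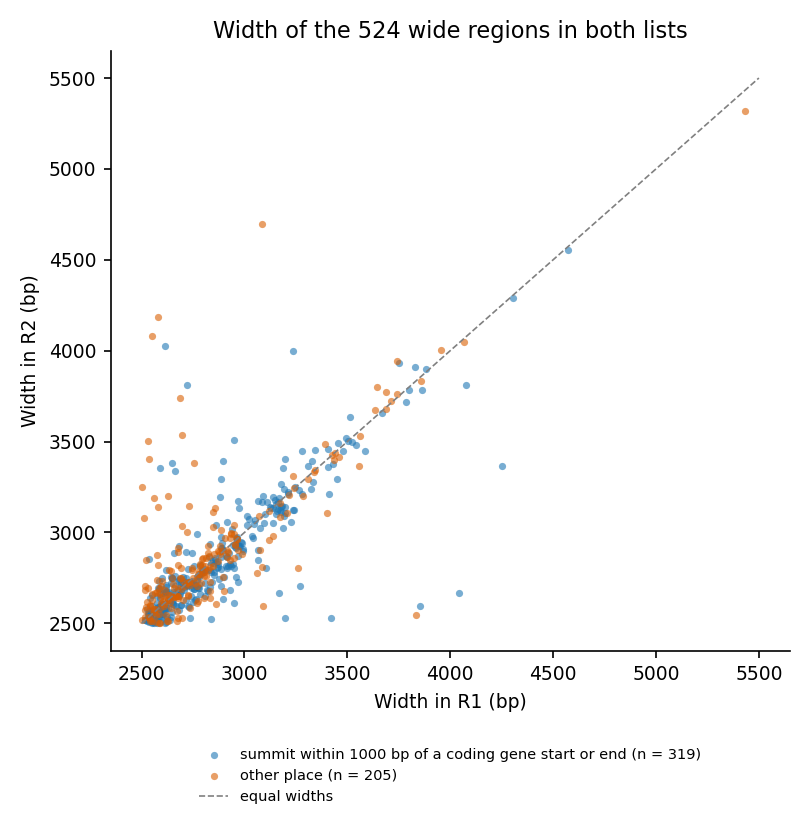
Width in R1 (horizontal axis, bp) against width in R2 (vertical axis, bp) of the 524 wide regions, 1 point per region, coloured by whether the R1 summit lay within 1000 bp of a coding gene start or end (319 regions) or not (205 regions). Most points lie near the dashed line of equal widths and under 3000 bp, and a scatter of regions above the line was wider in R2.

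Wide regions were tall and stood on a high surrounding background. The summit is the position with the most fragments in a peak, and the fold is the authors' value at that summit over the local background. The median fold was 5.14 in R1 and 5.18 in R2, at percentile 51.1 of the autosomal R1 peaks. The number of fragments over the summit, recovered from the fold and the p-value, had a median of 345 in R1 and 351.5 in R2, at percentile 95.1. Fragment is the word used here for the unit of that count, which the sources used here do not state. The local background had a median of 64.5 fragments in R1 and 65.8 in R2, at percentile 97.3. In R1 only 4 wide regions had fewer fragments over the summit than the median of 72 over all autosomal peaks. Peaks that were 1500 to under 2500 bp wide in both lists, 7657 regions called the next narrower class below, had a median fold of 7.30, with 289 fragments over the summit and a background of 38.5. Those of 750 to under 1500 bp had a median fold of 8.33 with 151 fragments and a background of 16.3. Fold was thus lower in the wide regions than in both of these narrower classes while fragments and background were higher. The way the authors computed this background, and so whether a wide peak adds to its own, was not tested.

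**Figure D2:**
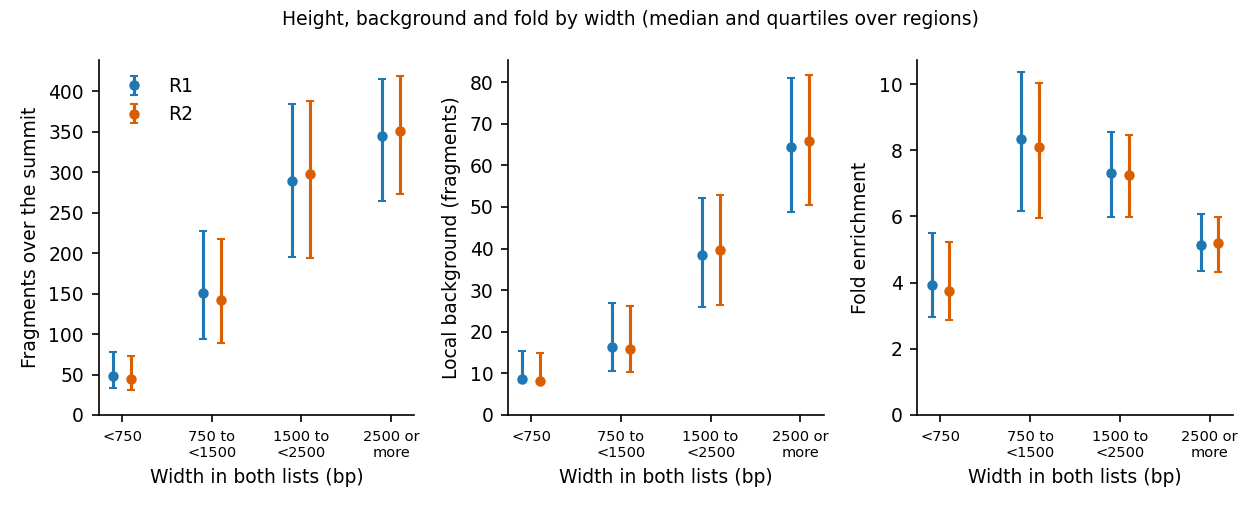
Fragments over the summit (left), local background in fragments (middle) and fold enrichment (right) by width of the region in both lists, for R1 and R2. Points are medians over regions and bars run from the lower to the upper quartile of the regions, not over libraries. In R1 fragments and background rise with width, from medians of 48 and 8.53 under 750 bp to 345 and 64.5 in the wide regions, and fold is highest at 750 to under 1500 bp.

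Single members spanned a wide range. The lowest fold was 2.23 in R1 and the highest 10.3, at RGS3, a regulator of G protein signalling, where the R2 fold was 8.50. LRP6, a Wnt co-receptor gene, followed at 9.32 in R1 and 8.06 in R2, and LAPTM4A, a lysosomal membrane protein gene, with 9.05 and 8.64. LAPTM4A also had the highest −log10 q, 350.6 in R1 and 318.9 in R2. At the other end, a region in IFITM10 had a −log10 q of 10.5 in R1 and 13.9 in R2. A region in BRSK2, a neuronal kinase gene, had 12.5 and 10.1. In 50 members −log10 q was under 50 in at least 1 list, a split added after the values were seen. These had a median of 145.5 fragments over the R1 summit and a background of 39.0, and 12 of them (24.0%) had the summit at a coding gene start or end. Of the other 474 members, 64.8% did.

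In most wide regions both lists placed the summit at nearly the same position, a median of 58 bp apart. In 70 regions (13.4%) the summits were more than 500 bp apart, against 6.66% in the next narrower class and 0.887% at 750 to under 1500 bp. A wider peak leaves more room for such a distance. The R1 summit lay within the outer 20% of the width at either end of the region in 173 members (33.0%), against 11.6% in the next narrower class. At TENM4, a teneurin transmembrane protein gene, the summits lay 3269 bp apart in a region of 3880 bp in R1 and 3899 bp in R2 whose edges moved by 20 and 39 bp. At BRD2 they lay 1 bp apart in a region of 4574 bp in R1 and 4555 bp in R2.

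In most wide regions the summit lay near a start, or an interval end, of a protein-coding gene. The R1 summit lay within 1000 bp of a listed coding start in 276 (52.7%) and within 1000 bp of an interval end of a coding gene with no start used here in 43 (8.21%), together 319 regions (60.9%). The share among all autosomal R1 peaks was 11.0%, and it was 51.8% in the next narrower class, 12.2% at 750 to under 1500 bp and 3.27% under 750 bp. The R2 summits gave 331 of the same regions (63.2%), against 10.9% of all autosomal R2 peaks. Wide regions therefore resembled the next narrower class in place and both stood apart from narrow peaks, a description over regions that are not replicates. Of the rest, 18 summits lay at the start of a long noncoding RNA gene, 113 (21.6%) in the body of a coding gene, 22 in another gene and 52 (9.92%) between genes. The corresponding shares over all autosomal R1 peaks were 47.3% for coding gene bodies and 29.0% between genes.

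**Figure D3:**
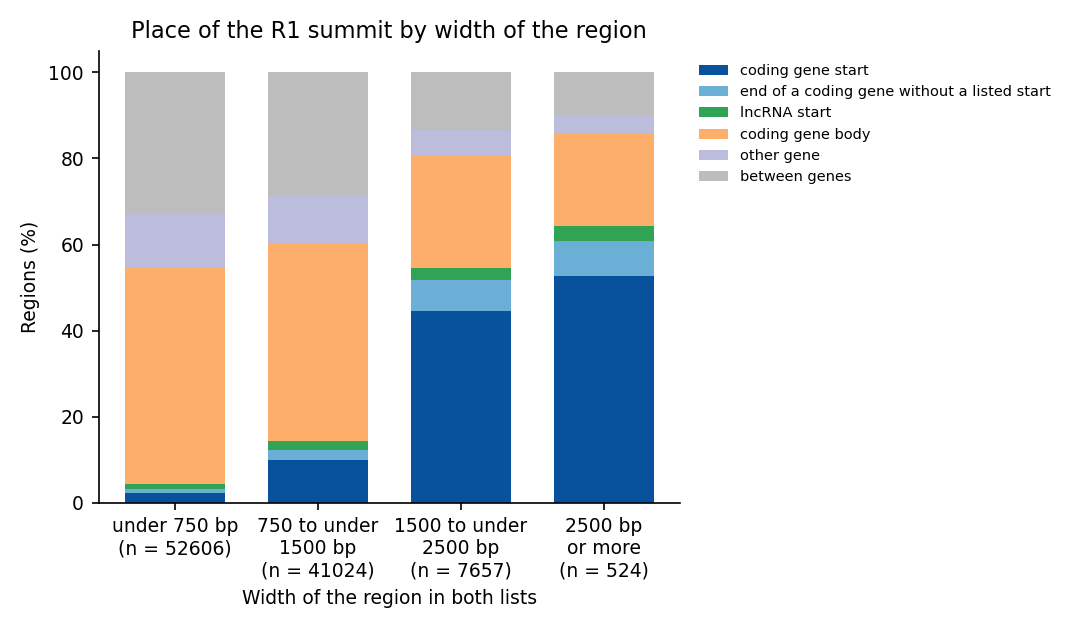
Share of regions (vertical axis, %) by the place of the R1 summit, for 4 classes of width in both lists, with the number of regions under each bar. Summits within 1000 bp of a coding gene start or of an end of a gene with no start used here make up 3.27% of the narrowest class, 12.2% and 51.8% of the next, and 60.9% of the wide regions.

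Wide regions frequently held the starts of more than 1 gene. Counting genes of any kind with a listed start inside the peak, 213 regions held 1 gene, 131 held 2, 9 held at least 3 and 171 held none, of which 41 held an end of a coding gene with no start used here. The share with 2 or more genes was 26.7%, against 15.8% in the next narrower class. A wider region has more room for a start. Coding genes with a listed start inside numbered 263 per Mb of wide region and 286 per Mb of the next class. Of the 131 regions with 2 genes, 103 (78.6%) held genes read away from each other, a median of 185 bp between the starts, and the share was 80.9% in the next class. In 50 regions a single gene had several listed starts, a median of 633 bp between the outermost, against 403 bp in the next class.

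In wide regions whose only listed start of any gene was 1 coding start, the open stretch lay mostly downstream of it. Such regions also held no end of a coding gene with no start used here. Regions with several listed starts, such as those of genes read away from each other, were thus left out. Over the 131 regions kept, the median extent was 1006 bp upstream and 1868 bp downstream, and 94 (71.8%) reached further downstream. In 1740 regions of the next class it was 699 and 1088 bp, and 72.4% reached further downstream. The R1 summit itself lay upstream in 81 of the 131 (61.8%), at a median of 162 bp before the start. TENM4 had the shortest upstream part, 57 bp, with 3822 bp downstream. KDM6B, a histone H3K27 demethylase gene, had 404 bp upstream and 2785 bp downstream with the summit 147 bp before the start, and a second wide region of 3713 bp in R1 and 3725 bp in R2 lay within the same gene.

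**Figure D4:**
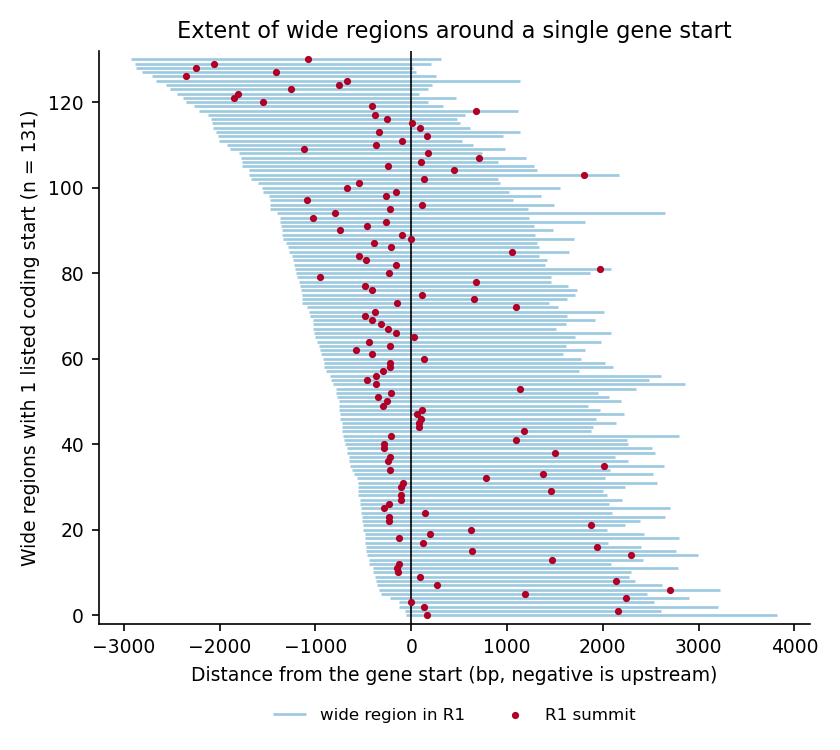
Extent of the 131 wide regions with 1 listed start of any gene, that of a coding gene. None held an end of a coding gene with no start used here. Each region is 1 line, ordered by its upstream part, against distance from the start (horizontal axis, bp, negative is upstream). The R1 summit is shown as a point. Lines reach further to the right than to the left in 94 regions, and 81 summits lie left of the start.

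Among wide regions that held a coding gene start, or an end of a coding gene with no start used here, the widest by the mean of both lists was the region of BRD2 on chromosome 6 (32968070 to 32972643 in R1), where R1 gave a fold of only 2.66 and R2 one of 2.49, over 473 and 415 fragments at the summit. Next was a region of 4304 bp in R1 and 4291 bp in R2 on chromosome 16 that held the starts of HCFC1R1 and THOC6, a gene of an mRNA export complex, and an end of TNFRSF12A, the TWEAK receptor gene. The region over H2BC21, H2AC20 and H2AC21 measured 4078 and 3814 bp. DUSP4, a phosphatase gene for MAP kinases, had 3827 and 3909 bp, CXXC5 had 3858 and 3831 bp, the pair H1-4 and H2BC5 3750 and 3934 bp, TRERF1 3862 and 3784 bp, MXRA8 4253 and 3367 bp, and NAB2, a corepressor gene of EGR factors, 3798 and 3786 bp. With TENM4, described above, these were the 10 widest of that kind, and the folds of these 10 lay between 2.49 and 4.74 in both lists.

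Of 19126 autosomal coding genes, 488 (2.55%) had a wide region within 1000 bp of a start, or of an interval end where no start was used, and 6200 (32.4%) had a region of at least 1500 bp in R1. Gene lists by function were read against these shares, with no test of any list. Among genes of the actin and myosin cytoskeleton 6 of 30 had a wide region (18 of 30 one of at least 1500 bp). CFL1, the gene of the actin-severing protein cofilin, measured 3178 bp in R1 and 3268 bp in R2, with folds of 3.27 and 3.28. That region also held the start of MUS81, and its R1 summit lay 91 bp from the MUS81 start. PFN1 had folds of 4.35 and 4.01 and ACTN4, an actin cross-linker gene, 4.51 and 3.99 in a region of 2941 and 3019 bp. TPM2, a tropomyosin gene, measured 2755 and 2815 bp, CNN2, a calponin gene, 2898 and 2904 bp, and PXN, the gene of the focal adhesion protein paxillin, 2729 and 3146 bp.

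Matrix and mesenchymal genes gave 5 of 32. VIM measured 3496 bp in R1 and 3522 bp in R2, with folds of 3.78 and 4.03 and 469 and 511 fragments over the summit. PRRX1, a mesenchymal homeobox gene, measured 3329 and 3396 bp with folds of 6.23 and 5.76. SPARC, a matrix glycoprotein gene, measured 2731 and 2727 bp, THBS1, the thrombospondin-1 gene, 2743 and 2696 bp, and COL12A1, a collagen XII chain gene, 2596 and 2551 bp. The TGF-beta pathway had 2 of 25, the ligand gene TGFB1 (3459 and 3413 bp, folds of 4.42 and 3.80) and SMAD3, which carries the signal to the nucleus (2821 and 2926 bp, folds of 2.62 and 2.63). No receptor gene of that list had a wide region, which says little for so few genes beside 2.55% of all coding genes.

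Transcription factors and chromatin proteins were found in several lists. YAP/TAZ and TEAD factors and targets gave 4 of 27: the DNA-binding partners TEAD2 (2790 bp in R1 and 2769 bp in R2) and TEAD4 (2752 and 2615 bp), and AMOTL1 (2734 and 2529 bp) and PTPN14 (2716 and 2728 bp), whose products bind YAP. AP-1 and immediate early genes gave 3 of 30, JUN (2930 and 2824 bp, folds of 3.60 and 3.57), EGR2 (2597 and 2601 bp) and EGR3 (2608 bp in both). FOS, the partner of JUN in AP-1, had a region of 2329 bp in R1, under the minimum. FOSB, another AP-1 gene (3557 bp in R1), and the nuclear receptor gene NR4A3 (3120 bp) were wider than JUN in R1 and missed the rule in R2. These 3 were named after their values were seen. Chromatin genes gave 5 of 28, with BRD2, SMARCA2, an ATPase of the SWI/SNF remodeller (3667 and 3657 bp), KDM6B (3190 and 3239 bp), NIPBL, the cohesin loader gene (2913 and 2803 bp), and CTCF (2554 and 2528 bp). Homeobox and other developmental factors gave 3 of 52, led by TFAP2A (3644 and 3803 bp, folds of 4.30 and 4.03), with MEIS1 and GATA6.

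Cell cycle and replication genes gave 3 of 28, CCND1 (cyclin D1, 3269 bp in R1 and 2705 bp in R2), CCNE2 (2602 and 2552 bp) and CDKN1A, the gene of the inhibitor p21 (2830 and 2869 bp). CCND1 and CCNE2 were placed by an end of their interval, as were TEAD4 and EGR3 above. The CCND1 region lay outside the gene's interval, with its R1 summit 747 bp from an end, and is not shown to lie at its promoter. The p53 pathway list gave 3 of 19, among them CDKN1A and the nuclease gene AEN. Housekeeping genes gave 3 of 33 (9.09%, against 2.55% of all coding genes), GAPDH (3236 and 3309 bp, 548 and 470 fragments over the summit), DDX5 and RAB7A. In R1 the GAPDH region reached 2926 bp upstream and only 309 bp downstream of the start. Its R1 summit lay 1080 bp upstream, so those fragments were not counted at the GAPDH start. The DDX5 region also lay within 1000 bp of the start of CEP95. Of these 33 genes 26 had a region of at least 1500 bp, the largest share of any list counted. Such a region was found at 36.0% of TGF-beta pathway genes and 23.1% of developmental factors, against 32.4% of all coding genes. The share was 56.25% for matrix and mesenchymal genes, 56.7% for AP-1 and immediate early genes and 55.6% for YAP/TAZ and TEAD genes. It was 53.6% for cell cycle genes and 46.4% for chromatin genes. Genes of snoRNA hosts gave 1 of 20 (ZFAS1) and long noncoding RNA genes 0 of 23. The 2.55% covers coding genes only, and no share over all noncoding genes is given here to read these counts against. All of these lists are small, so a single gene moves a share by several percentage points.

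Genes of the tissue of origin did not stand out among the wide regions. Of 22 autosomal genes of retinal pigment epithelium function 0 had a wide region, a count near the 2.55% over all coding genes for a list of this size. A shared region of any width was found at 13 of 22 (59.1%), against 73.7% of all coding genes. Of the 11 defining markers of the label 7 had a region in both lists (LRAT, RLBP1, BEST1, RDH5, MITF, OTX2 and PMEL) and RPE65, TTR, TYR and TYRP1 had none, beside the same 73.7% of all coding genes, so by this measure the markers did not set the line apart. The widest were MITF, the pigment cell factor gene, at 1949 bp in R1, and RDH5, a retinol dehydrogenase gene, at 1926 bp. Among eye transcription factors PAX6 alone had a wide region, of 2560 bp in R1 and 3190 bp in R2. Marker lists of other cell types gave 0 of 13 for blood, 0 of 11 for neurons and glia, 0 of 9 for photoreceptors, 0 of 10 for hepatocytes, 0 of 10 for endothelium and 0 of 8 for pluripotency, and epithelial junction and keratin genes gave 1 of 20, KRT8 (2919 and 2891 bp).

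**Figure D5:**
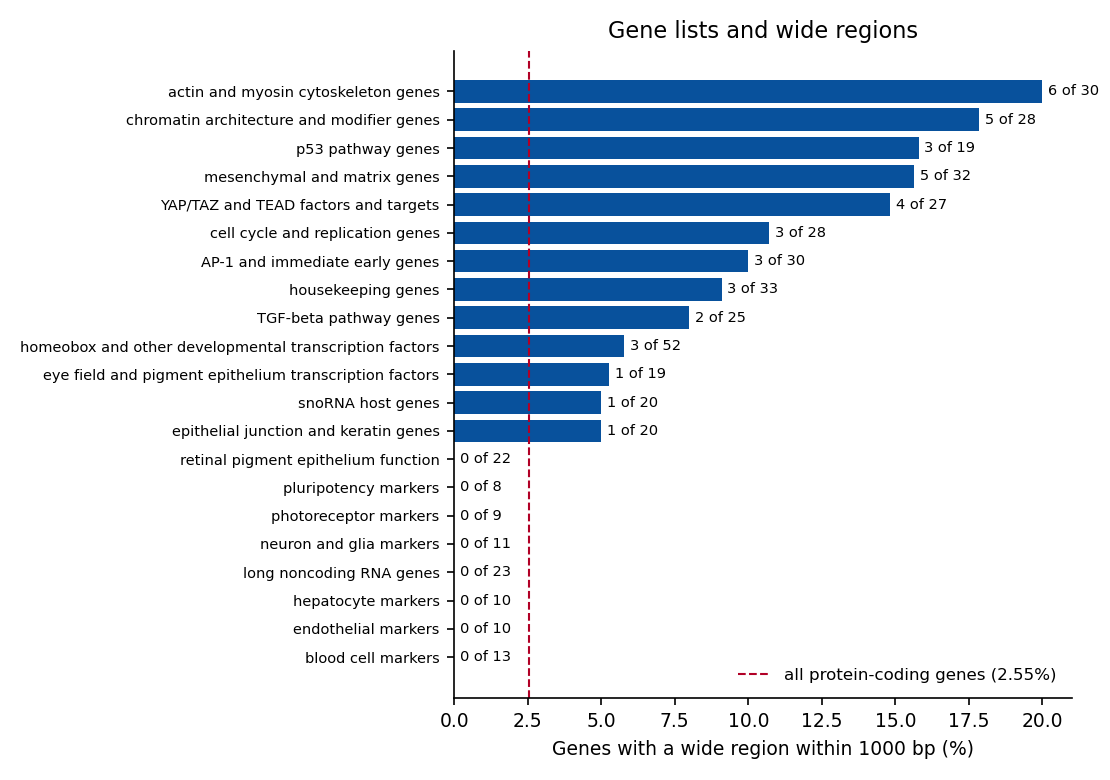
Share of the genes of each list with a wide region within 1000 bp (horizontal axis, %), with counts beside the bars and a dashed line at 2.55%, the share over all protein-coding genes. Cytoskeleton genes reach 6 of 30 and chromatin genes 5 of 28, and the lists for retinal pigment epithelium function and for other cell types stand at 0 apart from KRT8 among epithelial genes.

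Clusters of short genes were a distinct kind of member, picked out after the values were seen. Replication-dependent histone genes, which encode the core and linker histones made in S phase, gave 21 of 73 clustered genes (28.8%) inside 10 wide regions. Of all autosomal coding genes 2.55% had a wide region within 1000 bp, a count made in a different way. The histone share in the next narrower class is not given here, so this count is not shown to be particular to wide regions. On chromosome 6 the pair H2AC15 and H2BC15, whose shared promoter is printed above, lay whole inside a region of 3450 bp in R1 and 3292 bp in R2, with folds of 4.89 and 4.98. The same held for H2AC17 and H2BC17 (3157 and 3117 bp) and for H2AC16 and H1-5 (2953 and 2922 bp). On chromosome 1 the regions over H3C14 and H2AC18 and over H2AC19, H4C15 and H3C15 lay in the same cluster, with 2881 and 2896 bp in R1 against 3197 and 3391 bp in R2. Near-identical copies of these genes can share reads, and the placing of such reads was not tested. In all, 23 coding genes lay whole inside a wide region, most of them histone genes.

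Transfer RNA genes, which RNA polymerase III transcribes, gave 20 genes in 7 wide regions, or 13.3 per Mb against 6.69 in the next narrower class and 2.60 over all autosomal R1 peaks. A region on chromosome 17 (8118242 to 8121184) held the 4 genes TRK-TTT3-5, TRQ-CTG1-5, TRL-TAG1-1 and TRR-TCT2-1, with 454 and 463 fragments over the summit and folds of 3.46 and 3.47. Another on chromosome 17 (8220678 to 8223547) held 4 more, and one on chromosome 15 held TRH-GTG1-7, TRH-GTG1-8 and TRH-GTG1-9. Small nuclear RNA genes gave 6 of 151 genes in 4 regions, or 3.98 per Mb against 1.14 in the next narrower class and 0.426 over all autosomal R1 peaks. Among them were RNU4-1 with RNU4-2 (2638 bp in R1 and 2612 bp in R2) and RNU6-7 with RNU6-8 (2949 and 3040 bp). These too are multicopy families, so the same limit on reads holds.

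MicroRNA genes gave 8, in 8 regions, or 5.31 per Mb against 4.2 in the next narrower class and 2.08 over all autosomal R1 peaks. The mature forms of 3 of them are shown to tell them apart, as RefSeq gives them with the seed, bases 2 to 8, in capitals.
hsa-miR-92b-3p: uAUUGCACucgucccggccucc
hsa-miR-1908-5p: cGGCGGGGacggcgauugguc
hsa-miR-3615: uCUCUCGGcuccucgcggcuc
The 3 seeds differ. MIR92B lay in a region of 2958 bp in R1 and 2970 bp in R2 with folds of 4.22 and 3.92, MIR1908 in one of 2615 and 2610 bp, and MIR3615 in one of 3834 and 2544 bp.

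A second multicopy group was SRGAP2, a gene of neuronal migration, and its neighbour FAM72A, both copied on chromosome 1. The regions over SRGAP2 and FAM72A (2590 bp in R1 and 3356 bp in R2), SRGAP2B and FAM72D (2646 and 3380 bp) and SRGAP2C and FAM72B (2719 and 3809 bp) were all wider in R2. FAM72C, just outside the minimum, showed the same order. Fragments over the summit were 640, 596 and 411 in R1 and 623, 605 and 396 in R2. The copies are nearly identical, so these regions may share reads and their widths are uncertain.

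Members away from gene starts were fewer. The nearest coding start or end was a median of 7399 bp from the 187 summits that lay at no start, within 10000 bp for 99 and over 100000 bp away for 16. No start or end of any gene lay within 1000 bp of 82 members (15.6%). The widest of all 524, named here for its width after the values were seen, lay on chromosome 2 (240976354 to 240981785) in the body of CROCC2, with 5432 bp in R1 and 5319 bp in R2, folds of 4.86 and 4.57 and only 138 and 125 fragments over the summit. Among those with no gene end nearby the widest lay on chromosome 4 (186432391 to 186436459), 4069 and 4048 bp, within the antisense RNA gene F11-AS1, with 70 and 83 fragments over the summit and summits 3149 bp apart. TTC34 on chromosome 1 held one of 3956 and 4004 bp, with 199 and 169 fragments over the summit. RAI1, a gene of a chromatin regulator, held one of 3687 and 3773 bp, with 195 and 164 fragments over the summit. These CROCC2, F11-AS1, TTC34 and RAI1 regions thus had fewer fragments over the summit than the median wide region of 345. Repeated sequence at these places was not examined. ACTN4 held 2 members in its body in addition to the one at a start.

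Promoters in wide regions were rich in CpG, as were those of the next narrower class. Over 545 listed starts of 394 coding genes, the 300 bases around the start had a median of 66.3% G and C and 26 CpG, and the ratio of observed to expected CpG was at least 0.6 in 83.1%, against 88.2% of 5074 starts in the next class, 78.1% in other shared R1 peaks, 31.7% in no shared R1 peak and 62.6% of all. GGGCGG, the SP motif, was found on either strand in 73.9% of starts in wide regions, 73.9% in the next class and 56.6% of all. The ETS motif CCGGAAG was found in 14.3%, 19.8% and 12.9%, and the YY1 core AAGATGGC in 2.39%, 5.64% and 3.50%. CCAAT was found in 35.8%, 35.8% and 34.4%. The AP-1 motif TGANTCA was found in 4.95%, 4.30% and 6.08%, the TEAD motif GGAATG in 11.4%, 10.9% and 12.2%, the E-box CACGTG in 8.99%, 10.5% and 8.25%, and the NRF1 core CGCATGCG in 3.12%, 4.49% and 2.51%. A match is a description of letters in that window, and several starts of 1 gene share sequence. Genes that started in a wide region had a median length of 29827 bp, against 35429 bp for those of the next class and 25893 bp for all with a listed start.

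Wide regions were spread over all 22 autosomes. Chromosome 19 held 6.56 per 1000 autosomal R1 peaks of its own and chromosome 17 held 6.23, against 3.75 over all autosomes and 1.59 on chromosome 13. Per 1000 coding genes chromosome 10 was highest at 40.9, followed by chromosome 5 at 36.5 and chromosome 14 at 34.7, and chromosome 16 was lowest at 16.4. Chromosome 17 stood at 32.5 on this scale. Only 20 members lay within 20000 bp of another, in 10 pairs, among them PFN1 with SPAG7, the 2 regions of KDM6B, and the histone regions of H2AC4 and H3C3. The median number of shared regions within 50000 bp was 8 for wide regions, 8 for the next class and 7 for narrower ones, so wide regions did not lie among more neighbours by this count.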

How the data were processed

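ATAC-seq peak lists of 2 pooled sets of 3 libraries each were used. Per the submitters' processing notes the build is hg38. Not given in the sources used here are the aligner, the peak caller, versions, settings and any Tn5 shift. For each peak the authors deposited a score, a ratio (fold enrichment over background), the peak's −log10 p and −log10 q, and the summit offset. Fold, −log10 p and −log10 q were used only within a list, while summit positions were compared between the lists. Members and gene lists were chosen with earlier results of these data known. Wide regions are R1 peaks of at least 2500 bp on autosomes that overlap, by at least 1 bp, an R2 peak of at least 2500 bp. Width classes need both lists in the same class. Widths are end minus start, and printed starts count from 1.

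Genes came from the RefSeq table of GRCh38.p14, with starts from its promoter table for 15101 of 19126 autosomal coding genes. Both interval ends stood in for the other 4025, chromosome 8 included. Fragments over a summit and the background were recovered from fold and −log10 p, taken as (pileup + 1)/(background + 1) and a Poisson tail. A whole pileup gave the deposited p-value within 0.001 for 100% of R1 and of R2 peaks, so the relation rests on the values and on no stated source. The lowest background was 7.93 fragments in R1 and 7.79 in R2, the only measure of depth used here.

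Motifs were searched on both strands in windows of 250 bases before to 50 after a start, and the planned NRF1 and YY1 motifs were replaced by their 8-letter cores after the files were seen. Named members were the 10 widest with a coding gene, the 5 widest with no gene end nearby, up to 3 widest per list, the 5 with most starts, the 5 of highest fold and those at the minimum. Others named are those said to be chosen after their values were seen, all list members, and examples of the text; some items are not reported here. The steps were tested on simulated data. Tools were pandas 2.3.3, numpy 2.4.6, matplotlib 3.10.9 and scipy 1.17.1 under Python 3.11.15.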

Additional observations from a re-analysis of the deposited data

Results flagged for a closer look

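Peaks of at least 2500 bp in both lists were also called outside the autosomes, which the report does not use. Chromosome X held 12, among them regions at the starts of DDX3X, an RNA helicase gene (2509 bp in R1 and 2618 bp in R2, folds of 4.85 and 4.87), KDM6A, a histone demethylase gene (2935 and 2784 bp, folds of 6.77 and 5.84), and STAG2, a cohesin subunit gene (2756 and 2740 bp, folds of 4.47 and 4.04). Sequences other than chromosomes 1 to 22 and X also held 12. Both counts exceed 3, the limit set for flagging a count, which says only that such peaks were called.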

How the results depend on the processing

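No paired analysis was possible because each list pools its libraries, and for the same reason no replicate could be left out. The number of wide regions was 2240 at a minimum of 2000 bp and 107 at 3000 bp. The share with a summit near a coding start or end was 70.1% at 3000 bp, 54.6% with a window of 500 bp, 71.4% with 2000 bp and 75.4% where any part of the peak counted. With alternatives chosen after seeing the data it was 52.7% with listed starts only and 54.8% with both interval ends of every coding gene. The share with 2 or more genes was 21.9% at 2000 bp and 31.8% at 3000 bp. The median fold in R1 was 6.13 at 2000 bp and 4.65 at 3000 bp. The genes on any list with a wide region numbered 39 and became 93 at 2000 bp and 12 at 3000 bp. With members taken from R2, the share near a coding start or end was 63.2% and the share with 2 or more genes 27.1%. Overlap of at least 50% both ways, a −log10 q of at least 10 and joining peaks less than 150 bp apart left the number at 524 and every value as it was, so they say nothing about stability. A −log10 q of at least 50, chosen after seeing the data, left 474 regions. Without chromosome 8, also an alternative chosen after seeing the data, the share near a coding start or end was 61.6%. Depth per library was not used here, so how depth limits width was not tested.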
